A study of Mus musculus with 4 samples.

Results

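Shores are the flanks of unmethylated stretches of DNA, where methylation climbs to the level of the surrounding genome. They were taken here as 1 kb windows of chromosomes 1 to 19 with at least 5 listed CpGs and a mean methylation of 10 to 60% in the WT library, directly beside a window with at least 10 listed CpGs and a WT mean under 10%. Of 1217899 windows with at least 5 listed CpGs, 20127 were shores by this rule, and they lay beside 16874 of 28033 unmethylated windows. The cells were mouse embryonic stem cells of the line E14Tg2a. TetTKO cells carried CRISPR mutations in Tet1, Tet2 and Tet3, made by transfecting a mixture of guides in 2i medium and picking clones, and the labels do not say whether 1 clone was sequenced. WT cells were the unmodified line. Both lines shared the medium, 15% serum with LIF at 1000 units/ml, in which they were kept 17 days or longer, and each had 1 whole-genome bisulfite library and 1 RNA-seq library. With 1 library per genotype nothing below has a replicate check or a test. WT values chose the shores, so the difference between TetTKO and WT in them is a description.

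CpG-rich stretches at most promoters and at many regulatory elements stay unmethylated in mammalian cells, and their flanks are known as CpG island shores. The methyltransferases Dnmt3a and Dnmt3b place new methyl groups, and Dnmt1 with Uhrf1 copies them at replication. TET enzymes oxidise 5-methylcytosine to 5-hydroxymethylcytosine and beyond, a route to unmethylated DNA that is known to act at the edges of such stretches. Bisulfite sequencing reads 5-methylcytosine and 5-hydroxymethylcytosine alike, so a TetTKO value is 5-methylcytosine alone where a WT value can hold both.

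Some shores hold a gene start, and 5 promoters show at the level of the base what the difference looked like. The RefSeq sequences below (build GRCm38.p6) run 5′ to 3′ on the strand of the gene, from 250 bases before the start to 50 after it. Capitals mark each CpG that was at least 30 points higher in TetTKO than in WT. Each sequence was placed on the listed CpGs by the spacing of its own CpGs. The first 3 had the largest differences among promoters that lie wholly in 1 shore window, Hoxc4 is another such promoter at least 30 points higher, and Trh has its promoter in the unmethylated window between 2 shores. They were chosen after their values were seen. Rasip1 (chr7:45627287-45627586, plus strand) encodes a regulator of blood vessel formation. C2cd4a (chr9:67832281-67832580, minus strand) encodes a C2 domain protein. Bcl6 (chr16:23981234-23981533, minus strand) encodes a transcriptional repressor of the germinal centre. Hoxc4 (chr15:103034145-103034444, plus strand) is a HoxC cluster gene, and Trh (chr6:92244601-92244900, minus strand) encodes thyrotropin-releasing hormone.
Rasip1: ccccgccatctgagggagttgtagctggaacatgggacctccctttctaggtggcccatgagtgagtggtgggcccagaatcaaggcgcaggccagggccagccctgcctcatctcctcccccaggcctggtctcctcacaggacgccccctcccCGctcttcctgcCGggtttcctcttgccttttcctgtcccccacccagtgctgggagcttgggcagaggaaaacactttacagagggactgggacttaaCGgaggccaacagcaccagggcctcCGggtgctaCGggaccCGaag
C2cd4a: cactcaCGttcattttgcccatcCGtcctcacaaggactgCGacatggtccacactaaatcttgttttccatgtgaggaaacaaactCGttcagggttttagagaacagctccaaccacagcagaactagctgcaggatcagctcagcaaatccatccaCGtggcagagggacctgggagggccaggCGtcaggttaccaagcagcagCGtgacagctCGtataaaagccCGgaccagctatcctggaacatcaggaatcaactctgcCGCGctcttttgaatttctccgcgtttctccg
Bcl6: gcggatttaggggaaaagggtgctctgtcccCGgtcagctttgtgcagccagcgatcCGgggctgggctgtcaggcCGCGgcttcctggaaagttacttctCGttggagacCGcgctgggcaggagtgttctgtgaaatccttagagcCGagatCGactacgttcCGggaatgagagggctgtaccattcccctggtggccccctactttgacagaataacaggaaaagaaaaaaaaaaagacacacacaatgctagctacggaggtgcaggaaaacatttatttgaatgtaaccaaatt
Hoxc4: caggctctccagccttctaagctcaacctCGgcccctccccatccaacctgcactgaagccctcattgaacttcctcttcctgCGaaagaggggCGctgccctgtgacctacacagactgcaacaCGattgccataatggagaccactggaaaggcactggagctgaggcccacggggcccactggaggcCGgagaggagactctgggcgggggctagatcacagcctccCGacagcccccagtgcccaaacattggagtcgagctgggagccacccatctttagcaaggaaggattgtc
Trh: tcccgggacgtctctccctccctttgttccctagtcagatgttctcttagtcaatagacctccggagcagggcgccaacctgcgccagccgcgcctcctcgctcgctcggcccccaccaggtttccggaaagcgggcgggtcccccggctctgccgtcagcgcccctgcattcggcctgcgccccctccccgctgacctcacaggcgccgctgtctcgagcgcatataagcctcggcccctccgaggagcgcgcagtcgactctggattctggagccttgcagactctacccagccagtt

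In the Rasip1 promoter, 9 of its 9 CpGs were listed, and their mean was 67.2% in TetTKO and 18.2% in WT, over 73 and 87 read calls. The 6 capitalised CpGs lay from 95 bases before the start to 45 after it, so the difference crossed the start itself. The C2cd4a promoter had 53.6% in TetTKO and 7.66% in WT over 14 CpGs, and 11 of them were at least 30 points higher. In the Bcl6 promoter, 13 of 14 CpGs were listed, with a mean of 46.9% in TetTKO and 6.42% in WT, and the 9 capitalised CpGs all lay upstream, 219 to 85 bases before the start. The Hoxc4 promoter had 47.2% in TetTKO and 14.4% in WT over 9 CpGs. These 4 promoters had few CpGs. The Trh promoter, with 28 listed CpGs, stood at 3.58% in TetTKO and 0% in WT, where 0 methylated of all its WT read calls allows a share of up to 1.05%. No CpG of it was capitalised, although the shores on either side of it were 37.9 and 35.3 points higher in TetTKO.

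Over all 274 RefSeq promoters placed wholly within 1 shore, the mean was 10.2% in TetTKO and 5.30% in WT, and the median difference was 1.46 points. Of these, 198 were higher in TetTKO, 50 by at least 10 points and 10 by at least 30 points, and none was 30 points lower. The 10 had 10.3 CpGs on average, the other 264 had 17.3 and all 10266 placed promoters had 24.2. Most promoters within shores thus differed little, and those with large differences held few CpGs. Of all placed promoters, 74 (0.721%) were at least 30 points higher.

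The bisulfite libraries held 150132176 CpG read calls in TetTKO and 132794183 in WT over the same 14323377 CpGs, with median coverages of 10 and 8 reads. Tet1 had 4.36 FPKM in TetTKO and 15.1 in WT, Tet2 4.13 and 14.9, and Tet3 0.27 and 0.32, and an FPKM value cannot show a small deletion. Stem cell markers were high in both libraries, with 8 of 8 between 26.4 and 3344 FPKM in TetTKO and between 36.7 and 3211 in WT. Of 6 fibroblast markers, 5 were under 1 FPKM in both libraries, Lum was listed at 0 in both, and Thy1 had 0.96 FPKM in TetTKO and 1.29 in WT. Among single markers, Nanog had 71.0 FPKM in TetTKO and 116 in WT, Esrrb 26.4 and 49.3, and the neural marker Tubb3 32.4 and 61.1. The endoderm markers Sox17, Gata6 and Gata4 were low, with 1.06, 1.44 and 1.19 FPKM in TetTKO and 0.30, 0.37 and 0.45 in WT, and their part in the results was not tested. Chromosome 6 stood apart: its shores had 10.6 reads per CpG in TetTKO and 12.95 in WT, where the other 18 chromosomes had 10.6 to 11.1 in TetTKO and 9.31 to 9.76 in WT. Its 514 genes of at least 1 FPKM had a median log2 fold change of -0.43, against -0.05 to 0.09 on the others.

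Shores as a class were more methylated in TetTKO, while the genome was less. Their mean was 40.5% in TetTKO and 31.7% in WT, a difference of 8.82 points (SD over 19 chromosomes 0.489), and every chromosome lay between 7.93 and 9.58 points. An SD over chromosomes says how even a difference is along the genome, and nothing of the error between cultures. The mean of all windows was 69.1% in TetTKO and 74.2% in WT. In TetTKO, 80.5% of shores were higher, against 27.7% of all windows. Of the windows of 10 to 60% in WT that touch no unmethylated window, 74.4% were higher. At least 30 points separated 718 shores upward (3.57%) and 2 downward, where all windows had 0.667% and 0.63% and windows of 10 to 60% in WT that touch no unmethylated window had 5.66% and 0.0413%. Because the WT level set the membership, nothing is read from these shares.

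When the same rule was applied to the TetTKO library, 17793 shores were found, 12729 of them also in the WT set. That is 71.5% of the TetTKO-chosen and 63.2% of the WT-chosen shores. Their mean was 33.1% in TetTKO and 27.0% in WT, a difference of 6.09 points (SD over chromosomes 0.436), with 224 shores higher by 30 points or more and 42 lower by as much. A choice on 1 library favours windows in which counting error moved the value of that library into the limits, so the values of both choices are given below. When shores were chosen on their odd-numbered CpGs and measured on the even-numbered ones, the difference was 8.36 points.

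At the lower limit of the rule the difference was as large outside as inside. Windows of 10 to 12% in WT beside an unmethylated window had 20.5% in TetTKO and 11.0% in WT, and those of 8 to 10% had 18.7% in TetTKO and 8.95% in WT. At the upper limit there was little difference on either side, with 59.5% in TetTKO and 58.9% in WT for windows of 58 to 60% and 61.01% in both for windows of 60 to 62%.

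Read outward from the border that a shore shares with its unmethylated neighbour, the difference had a single peak inside the shore. The 20557 shore borders were read in steps of 200 bp. In the last step of the unmethylated neighbour, from -200 to -1 bp, the mean was 9.18% in TetTKO and 3.85% in WT. In the first step of the shore it was 20.05% in TetTKO and 11.04% in WT. From 200 to 399 bp it was 33.5% in TetTKO and 22.1% in WT, a difference of 11.4 points (SD over chromosomes 0.652) and the largest of all steps. The gap then closed. It was 10.4 points from 400 to 599 bp, 7.51 from 600 to 799 bp and 4.80 from 800 to 999 bp. From 1000 to 1199 bp, in the next window, it was 3.19 points, and from 1800 to 1999 bp 0.741 points, with 53.4% in TetTKO and 52.6% in WT. Where every shore weighs the same, the difference from 1800 to 1999 bp was -1.17 points. All steps from -3000 to 1399 bp were positive on 19 of 19 chromosomes.

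The slope stood closer to the unmethylated side in TetTKO, by more at higher levels. The mean profile passed 10% at 84.8 bp inside the unmethylated neighbour in TetTKO and 71.0 bp outside it in WT. It passed 30% at 247.6 bp from the border in TetTKO and 426.6 bp in WT, and 40% at 413 bp in TetTKO and 614 bp in WT. The shift was thus -156 bp at 10%, -179 bp at 30% and -200.3 bp at 40%. For shores chosen from TetTKO these shifts were -127, -161 and -194.5 bp, and the largest difference was 9.15 points at 400 to 599 bp.

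**Figure D1:**
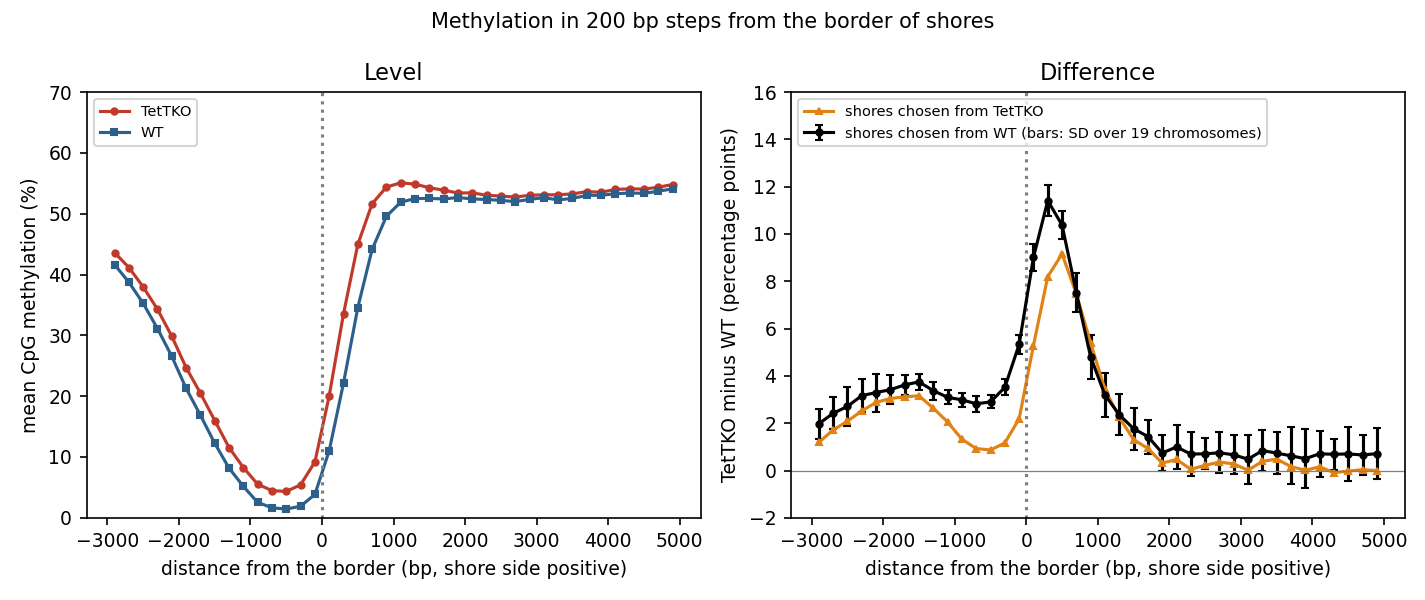
Mean methylation of CpGs (left, in %) in TetTKO and WT and their difference (right, in percentage points) in 200 bp steps from the border, with negative distances on the unmethylated side. The difference is highest at 200 to 399 bp for shores chosen from WT (11.4 points, bars are SDs over 19 chromosomes) and at 400 to 599 bp for shores chosen from TetTKO (9.15 points), and is under 1 point from 1800 bp on.

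The unmethylated neighbours were higher too, by less than the shores. Their window means were 8.18% in TetTKO and 2.96% in WT, 87.6% of them were higher in TetTKO, and 276 (1.64%) were higher by 30 points or more. In the step from -600 to -401 bp the mean was 4.34% in TetTKO and 1.44% in WT over CpGs, or 7.92% in TetTKO and 2.66% in WT where every shore weighs the same, and with shores chosen from TetTKO the difference there was 0.867 points. Leaving the CpGs of the measured step out of the choice gave 6.34, 10.2, 9.97, 6.83 and 4.06 points for the 5 steps of the shore, and leaving out all CpGs within 400 bp gave 4.35, 5.17, 4.14 and 3.32 points for steps 1, 2, 4 and 5. The largest step value thus ranged from 5.17 to 11.4 points with the choice of shores, and all of these values were positive.

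The higher mean in the shore came with more CpGs at intermediate levels. From 200 to 399 bp, 56.5% of CpGs in TetTKO and 37.3% in WT were between 20 and 80% methylated. CpGs of at most 20% made up 38.3% in TetTKO and 59.8% in WT, and CpGs of at least 80% made up 5.18% in TetTKO and 2.85% in WT. CpGs of 80% or more were thus the smallest class in both genotypes in this step. From 800 to 999 bp the high class went the other way, with 17.5% of CpGs in TetTKO and 20.2% in WT at 80% or more, and beyond the shore, from 1800 to 1999 bp, it was 22.7% in TetTKO and 31.5% in WT. Coverage per CpG in these steps was 10.5 to 10.8 reads in TetTKO and 9.37 to 9.77 in WT.

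CpG density was lower step by step outward, where methylation was higher. The number of listed CpGs per border was 5.99 in the last 200 bp of the unmethylated neighbour, 4.14 in the first step of the shore, 2.97 in the second and 2.13 in the last. From 1000 to 1999 bp it was flat at 1.97 to 1.99. The step with the largest difference thus lay on the falling side of CpG density, before it levelled off.

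Whether shores differed more or less than other windows of 10 to 60% depended on the library that chose the windows. With no matching, shores had 40.5% in TetTKO and 31.7% in WT, and windows that touch no unmethylated window had 52.8% in TetTKO and 43.8% in WT, differences of 8.82 and 8.93 points. Within 15 classes of WT level and CpG number, shores had the smaller difference in 15, with 8.82 points against 13.05 in the other windows weighted alike. Chosen and matched on TetTKO instead, shores had the smaller difference in 3 of 15 classes, with 6.09 points against 2.79. No direction is read from this comparison. By CpG number, shores of 5 to 9 CpGs differed by 8.09 points, those of 10 to 19 by 9.38 and those of 20 or more by 8.59. The same classes chosen from TetTKO had 3.25, 6.97 and 7.95 points, so the value of sparse shores depended most on the choice.

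Shores of long unmethylated stretches differed more. A stretch is a run of adjacent windows under 10% in WT. Shores of a single such window, 11465 in number, had 39.3% in TetTKO and 30.7% in WT, a difference of 8.61 points (SD over chromosomes 0.610). Those of stretches of 2 windows had 8.57 points. Those of stretches of 4 windows had 41.2% in TetTKO and 29.7% in WT, or 11.5 points (SD 2.07), and those of 5 or more had 41.1% in TetTKO and 28.4% in WT, or 12.8 points (SD 2.60, 242 shores). With shores chosen from TetTKO, stretches were runs of windows under 10% in TetTKO. The differences were then 6.06 points for single windows, 5.63 for 2, 9.97 for 4 (236 shores) and 11.6 for 5 or more (97 shores). Long unmethylated stretches are known in embryonic stem cells as marks of developmental regulator genes.

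The flanks of a stretch were only loosely alike. Of 6223 stretches with a shore on each side, 4224 (67.9%) had both shores higher in TetTKO, 1697 had 1 of the 2 and 302 had neither, where 80.5% of all shores were higher. The differences of the 2 flanks had a Pearson correlation of 0.214 and a Spearman correlation of 0.196 across stretches, which are not independent samples and share both libraries. At least 30 points separated 1 flank in 408 stretches and both flanks in 27.

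Shores far from gene ends differed most. Places were read from the gene intervals of the deposited RNA tables, with strands from RefSeq, on the 18 chromosomes where strands were known. The 2954 shores that lie inside a gene but over 2 kb from any gene end had 43.5% in TetTKO and 31.2% in WT, a difference of 12.3 points (SD over chromosomes 1.26). The 3270 outside genes had 42.7% in TetTKO and 32.2% in WT, or 10.5 points (SD 0.836). Shores within 2 kb of a start differed less. Those downstream of it, on the side of the gene body, had 40.2% in TetTKO and 32.1% in WT, or 8.05 points (SD 0.821, 4670 shores). Those upstream had 39.9% in TetTKO and 33.2% in WT, or 6.67 points (SD 0.686, 3966 shores), and the 537 shores that hold a start had 27.1% in TetTKO and 21.9% in WT, or 5.19 points (SD 1.58). Chosen from TetTKO, these 5 places had 8.77, 6.71, 6.36, 4.53 and 5.35 points, so the order of the last 2 turned round.

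The gene-body side of a start differed more than the upstream side on nearly all chromosomes. The difference between the sides averaged 1.34 points (SD over chromosomes 0.860) and was positive on 17 of 18 chromosomes, and with shores chosen from TetTKO it was 1.82 points (SD 0.698) and positive on 18 of 18. The step profiles of the sides differed inside the shore and beyond it. From 200 to 399 bp the difference was 11.6 points downstream and 9.76 points upstream. From 1800 to 1999 bp it was -0.346 points downstream and -1.79 upstream, whereas in genes far from their ends it was still 4.77 points.

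**Figure D2:**
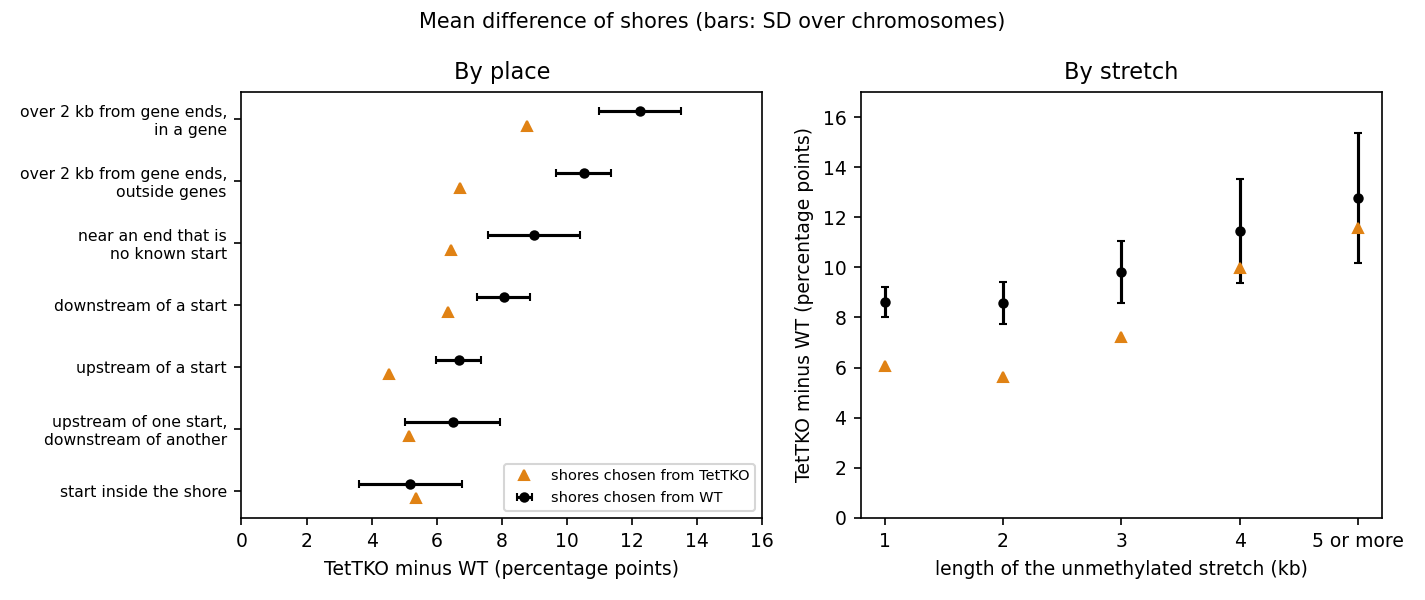
Mean difference between TetTKO and WT (percentage points) of shores by their place relative to genes (left) and by the length of the unmethylated stretch they flank in kb (right). Black circles are shores chosen from WT with the SD over chromosomes, and orange triangles are shores chosen from TetTKO, and in both the shores far from gene ends and those of stretches of 4 kb or more lie highest.

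Shores beside silent genes differed more than those beside highly expressed ones, least clearly downstream of the start. Upstream of genes with at most 0.1 FPKM in WT, shores had 41.4% in TetTKO and 31.7% in WT, a difference of 9.70 points (SD over chromosomes 2.78, 355 shores). Upstream of genes over 10 FPKM they had 38.7% in TetTKO and 33.2% in WT, or 5.45 points (SD 0.930, 1547 shores). Downstream of starts the same classes differed by 9.24 points (SD 2.32) and 6.97 points (SD 1.08). Genes of 0.1 to 1 FPKM had 9.79 points there, more than the silent ones. Where the shore held the start, silent genes had 35.0% in TetTKO and 26.0% in WT and genes over 10 FPKM 22.1% in TetTKO and 19.2% in WT. With shores chosen from TetTKO the upstream values were 6.96 and 3.67 points. The downstream values were 6.94 points (SD 1.80) and 6.24 points (SD 1.18), a gap smaller than either SD. Shores of silent genes also held more CpGs, with 16.05 against 12.3 upstream, and the part of this in the result was not tested.

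Single shores were named by a rule of size among those with at least 15 CpGs and 100 read calls in each library, with intervals that are exact 95% binomial intervals of pooled read calls and cover counting error only. The largest positive difference was 105 bp upstream of Nkx2-1, a homeobox factor of lung, thyroid and ventral forebrain. This window (mm9 chromosome 12, 57638000 to 57638999, 20 CpGs) had 67.1% of 164 read calls methylated in TetTKO (59.3 to 74.2) and 15.6% of 141 in WT (10.04 to 22.7). The gene itself had 0.02 FPKM in both libraries. Its unmethylated neighbour had 10.7% in TetTKO and 1.07% in WT. The last step before the border had 16.7% in TetTKO, and the first step of the shore had 55.0% in TetTKO and 10% in WT, over 2 CpGs each. WT was at most 20.8% in any step of the window and had 50.7% from 1000 to 1199 bp, where TetTKO had 87.2% over 4 CpGs. On these few CpGs the steepest climb lay at the border in TetTKO and 1000 bp further out in WT.

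At Cyr61, a matricellular protein gene induced by YAP and SRF, 2 windows were named. The window 2051 bp from the gene (chromosome 3, 145315000 to 145315999) had a mean of 69.1% in TetTKO and 16.8% in WT. The unmethylated windows on both sides of it averaged 45.0% in TetTKO and 4.41% in WT. The window that starts 950 bp inside the gene (145311000 to 145311999) had 58.4% in TetTKO and 15.1% in WT, and its neighbour 6.16% in TetTKO and 1.52% in WT. The unmethylated windows beside these shores thus differed between TetTKO and WT by unlike amounts. Cyr61 had 3.05 FPKM in TetTKO and 1.74 in WT.

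The other shores with the largest differences were near or in genes of many kinds. A window 3018 bp from Prdm16, a zinc finger regulator of brown fat, had 62.9% in TetTKO and 11.9% in WT. Windows in Snx18, a sorting nexin gene, and Adamts1, a secreted metalloprotease gene, had 63.0% and 64.9% in TetTKO and 13.4% and 16.8% in WT. Windows in Igsf21 and in the sodium pump subunit gene Atp1b1 had 59.6% and 60.1% in TetTKO and 12.4% and 14.7% in WT. Windows in the neurotrophin gene Ntf3, the histamine receptor gene Hrh2 and the long noncoding RNA gene Six3os1 had 67.3%, 67.5% and 70.7% in TetTKO and 22.4%, 22.6% and 25.8% in WT. Of these 10 shores, 6 lay in a gene over 2 kb from its ends and 2 more outside genes at that distance. Of all shores on the 18 chromosomes with known strands, 15.1% and 16.7% lay in these places. Unmethylated neighbours, averaged where they lay on both sides, were over 10% in TetTKO at 9 of these 10 shores. That of Hrh2 was not, with 6.74% in TetTKO and 2.60% in WT. The neighbours stood at 58.4% in TetTKO and 9.35% in WT at Snx18, and 29.6% in TetTKO and 6.15% in WT at Prdm16. The median of all unmethylated neighbours was 4.76% in TetTKO and 1.83% in WT.

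Shores that were lower in TetTKO differed less. The largest was a window 185558 bp from Uqcrb (chromosome 13, 66815000 to 66815999, 31 CpGs), with 23.8% of 902 read calls in TetTKO (21.1 to 26.8) and 53.3% of 644 in WT (49.3 to 57.2). Its read calls per CpG were high in both libraries. A window 123 bp from Gm13238 had 7.90% in TetTKO and 32.8% in WT, and this gene had 12.2 FPKM in TetTKO and 2.96 in WT. Windows near Ecscr, an endothelial membrane protein gene, and in Mrfap1 and Gm16853 had 33.7%, 35.8% and 39.5% in TetTKO and 55.3%, 57.2% and 59.8% in WT. The unmethylated neighbours of the last 2 stayed under 1% in both libraries.

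**Figure D3:**
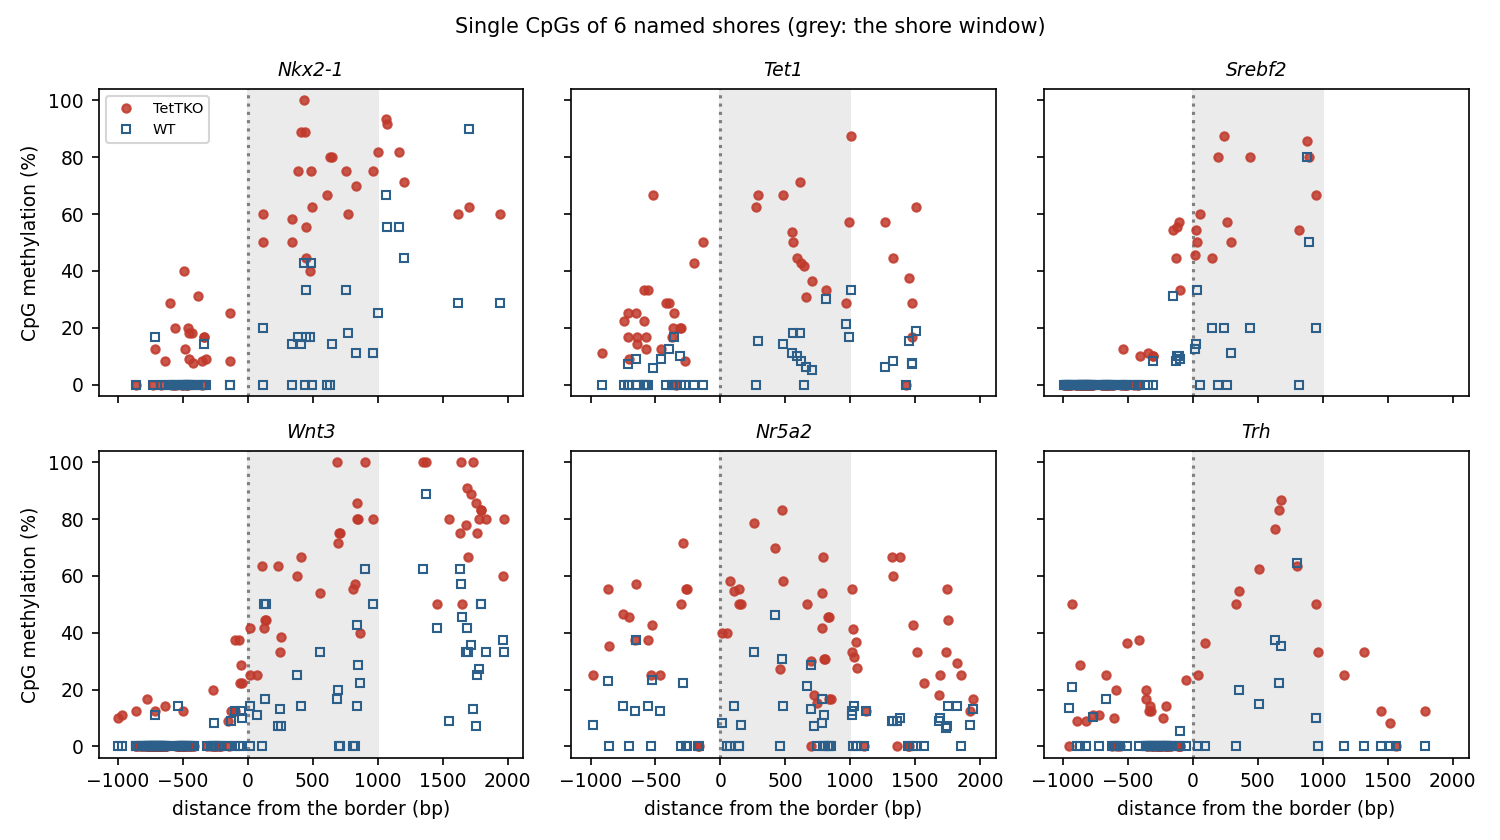
Methylation of single CpGs (in %) in TetTKO (red circles) and WT (blue squares) by distance from the border in bp, for 6 named shores whose 1 kb window is shaded. TetTKO CpGs lie above WT CpGs through most of each window. In TetTKO and WT the unmethylated neighbour had 4.98% and 1.28% at Srebf2, 3.69% and 0.985% at Wnt3 and 8.08% and 1.47% at Trh. It had 10.7% in TetTKO and 1.07% in WT at Nkx2-1, and 23.0% in TetTKO and 2.71% in WT at Tet1. The neighbours on both sides of the Nr5a2 shore averaged 34.8% in TetTKO and 8.20% in WT.

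Among 17 gene lists, all had a positive median over the shores in or within 1 kb of their members, where the median of all shores was 7.98 points. Of all shores, 80.5% were higher in TetTKO, 3.57% by at least 30 points, and 2.83% were lower by at least 10 points, and the counts of each list are to be read beside these shares. Signalling genes of the FGF, Nodal, BMP and Wnt pathways had a median of 14.2 points, with 52 of 57 shores (91.2%) higher and 6 by at least 30 points. At Wnt3, a ligand of the primitive streak, a window 36.5 kb inside the gene had 60.1% in TetTKO and 20.0% in WT over 25 CpGs. Tcf7l2, a Wnt effector, had 59.8% in TetTKO and 24.5% in WT, and Smad7, an inhibitor of BMP and Nodal signals, 50.3% in TetTKO and 15.4% in WT. All 3 differed by less than 2-fold on the log2(FPKM + 1) scale. Wnt3 and Tcf7l2 were under 1 FPKM in both libraries, where this scale allows no 2-fold call. They had 0.88 and 0.33 FPKM in TetTKO and 0.22 and 0.09 in WT. Chosen from TetTKO, their shores had a median of 12.7 points, where all shores so chosen had 6.47.

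Lists of early embryonic lineages had medians of 9.89 to 13.9 points, above the 7.98 of all shores, as most other lists did. The value of all shores is not matched for WT level. Median differences fell from 10.3 points in shores of 20 to 30% in WT to 2.58 in those of 50 to 60%. Median WT levels of the lineage lists lay within 20 to 30%, against 30.2% over all shores. Beside the 10.3 points, neuroectoderm and primitive endoderm genes were not higher, while the naive, formative, trophoblast and mesoderm lists were. Formative and primed epiblast genes had a median of 13.9 points, with 34 of 38 shores (89.5%) higher, and Lefty2, a Nodal antagonist, had 55.9% in TetTKO and 27.1% in WT. Sall2, on the same list, had a shore at 35.5% in TetTKO and 12.0% in WT and 5.90 FPKM in TetTKO against 0.77 in WT. Naive and core pluripotency genes had a median of 11.8 points, with 36 of 38 shores (94.7%) higher. At Nr5a2, a nuclear receptor that activates Pou5f1, a shore with unmethylated windows on both sides had 43.4% in TetTKO and 10.06% in WT, and at Prdm14 54.3% in TetTKO and 22.0% in WT. Trophoblast genes had 12.3 points, with Hand1 at 56.0% in TetTKO and 22.4% in WT and Cdx2 at 51.0% in TetTKO and 20.8% in WT. Mesoderm and primitive streak genes had 12.9 points, with Hand2 at 50.4% in TetTKO and 17.3% in WT and T at 66.7% in TetTKO and 37.1% in WT. Neuroectoderm genes had 10.2 points and primitive endoderm genes 9.89 points.

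Hox genes had a median of 13.4 points, with 67 of 73 shores (91.8%) higher. Hoxc13 had a shore of 61.5% in TetTKO and 19.7% in WT, and Hoxa2 one of 43.0% in TetTKO and 13.98% in WT. These genes had at most 0.3 FPKM in both libraries. The shore that holds the start of Hoxc4, at 0.01 FPKM in both, whose promoter is printed above, had 53.2% in TetTKO and 19.6% in WT. Other homeobox and forkhead genes stood at the level of all shores, with 7.87 points, in spite of Nkx2-1 and of Pax7, which had 54.2% in TetTKO and 20.5% in WT. Chosen from TetTKO, their shores had 8.42 points, above the 6.47 of all shores so chosen. Polycomb and trithorax genes had 9.76 points. Of their members, the CpG island reader Kdm2b had a shore at 55.2% in TetTKO and 31.7% in WT.

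Other lists ranged from below the level of all shores to the highest median of all. The p53 and SRF target lists lay above those of neuroectoderm and primitive endoderm genes with shores chosen from WT. Chosen from TetTKO the order turned round, with 8.78 and 8.89 points against 10.1 and 11.6. Germline genes had the highest median, 21.2 points, but with only 7 shores, among them the meiotic cohesin gene Stag3 at 38.1% in TetTKO and 16.9% in WT. Genes of p53 and its targets had 11.5 points, with Btg2 at 51.9% in TetTKO and 17.4% in WT and Plk2 at 63.3% in TetTKO and 38.8% in WT. Cholesterol biosynthesis genes had 9.55 points, or 4.67 with shores chosen from TetTKO. At Srebf2, the activator of that pathway, a shore 1301 bp downstream of the start had 64.0% in TetTKO and 20.1% in WT. Smooth muscle and SRF target genes had 10.9 points, cytosolic ribosomal protein genes 7.60 and imprinted genes 6.30, the lowest. With shores chosen from TetTKO, ribosomal protein genes had 8.24 and imprinted genes 8.23, above the 6.47 of all shores so chosen.

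**Figure D4:**
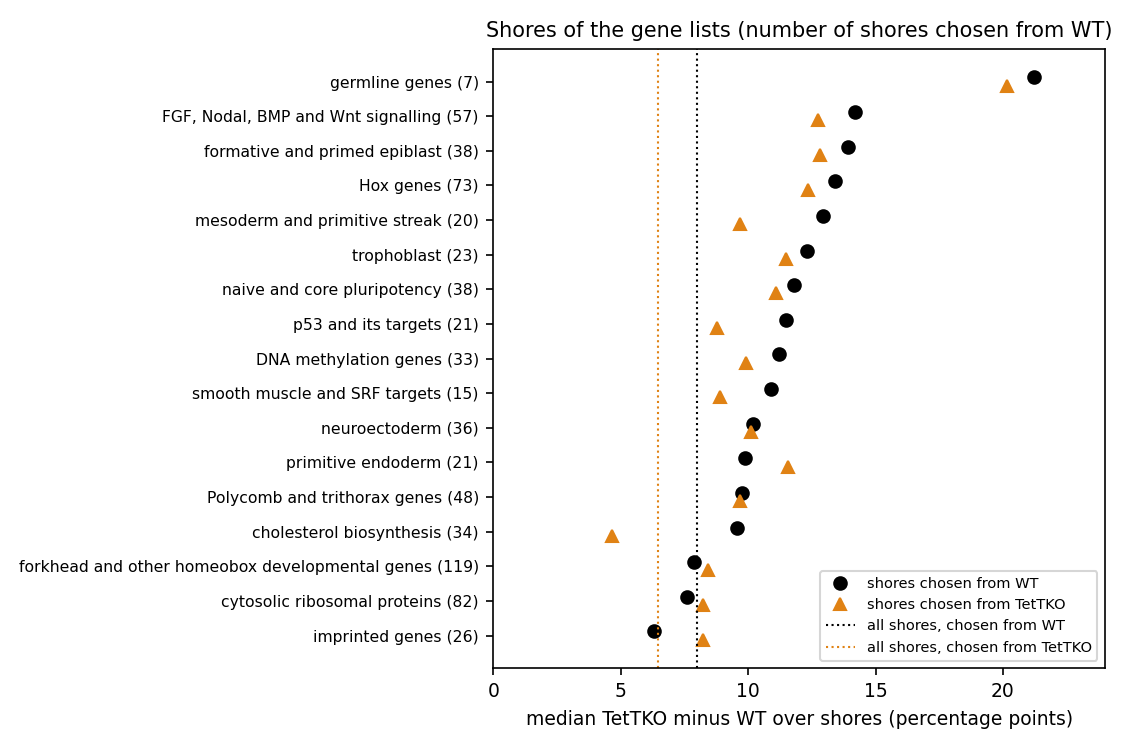
Median difference between TetTKO and WT (percentage points) over the shores of each of 17 gene lists, for shores chosen from WT (black circles) and from TetTKO (orange triangles), with dotted lines at the medians of all shores (7.98 and 6.47 points). All medians are above 0, from 6.30 points for imprinted genes to 21.2 points for germline genes among shores chosen from WT.

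The genes of the methylation machinery carried shores of their own. Their list had a median of 11.2 points over 33 shores. In Tet1, a window 12763 bp downstream of the start (chromosome 10, 62329000 to 62329999) had 48.9% of 139 read calls in TetTKO (40.4 to 57.5) and 11.4% of 176 in WT (7.08 to 17.0), and the shore on the other flank of the same unmethylated window had 37.7% in TetTKO and 27.4% in WT. The Tet2 shore had 43.0% in TetTKO and 31.1% in WT, and the 2 shores of Tet3 differed by 7.56 and 8.09 points. Among methyltransferase genes, Dnmt3b had shores at 44.3% and 43.6% in TetTKO and 37.4% and 24.9% in WT, and 149 FPKM in TetTKO against 66.9 in WT. Dnmt3a had shores 11.2 to 18.6 points higher and 30.3 FPKM in TetTKO against 14.7 in WT. Dnmt1 had shores 21.2 and 5.06 points higher, with 65.8 FPKM in TetTKO and 59.8 in WT. Uhrf1 had a shore at 56.9% in TetTKO and 27.2% in WT and another, at its start, at 8.30% in TetTKO and 10.005% in WT, with 71.8 FPKM in TetTKO and 109 in WT. Dnmt3l, the catalytically inactive partner, had shores at 40.3%, 54.0% and 20.4% in TetTKO and 22.8%, 29.6% and 20.9% in WT, with 304 FPKM in TetTKO and 291 in WT. A higher shore was thus found beside genes that stood higher, lower and level in TetTKO.

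Most genes with higher shores differed little in expression. Of 10596 genes that reached 1 FPKM in TetTKO or WT, 7964 had a shore in or within 1 kb of them. A gene was called 2-fold different on log2(FPKM + 1), by size alone. Of all genes, 0.831% were 2-fold lower in TetTKO and 1.68% were 2-fold higher. Among 636 genes whose shores were on average at least 20 points higher, 26 (4.09%) were 2-fold lower and 9 (1.42%) were 2-fold higher. Among 1631 genes whose shores were on average lower, 1 (0.0613%) was 2-fold lower and 9 (0.552%) were 2-fold higher. Median log2 fold changes of these classes were -0.08 and 0.01.

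Chromosome 6 and the choice of shores moved these counts. Without chromosome 6, 17 of 603 genes (2.82%) were 2-fold lower, where all genes had 0.595%. With shores chosen from TetTKO, 7 of 371 genes (1.89%) with a mean of at least 20 points were 2-fold lower and 4 (1.08%) 2-fold higher, and without chromosome 6 these were 4 and 4 of 351. The share of lower genes was thus smaller in each of these, and genes are not replicates.

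**Figure D5:**
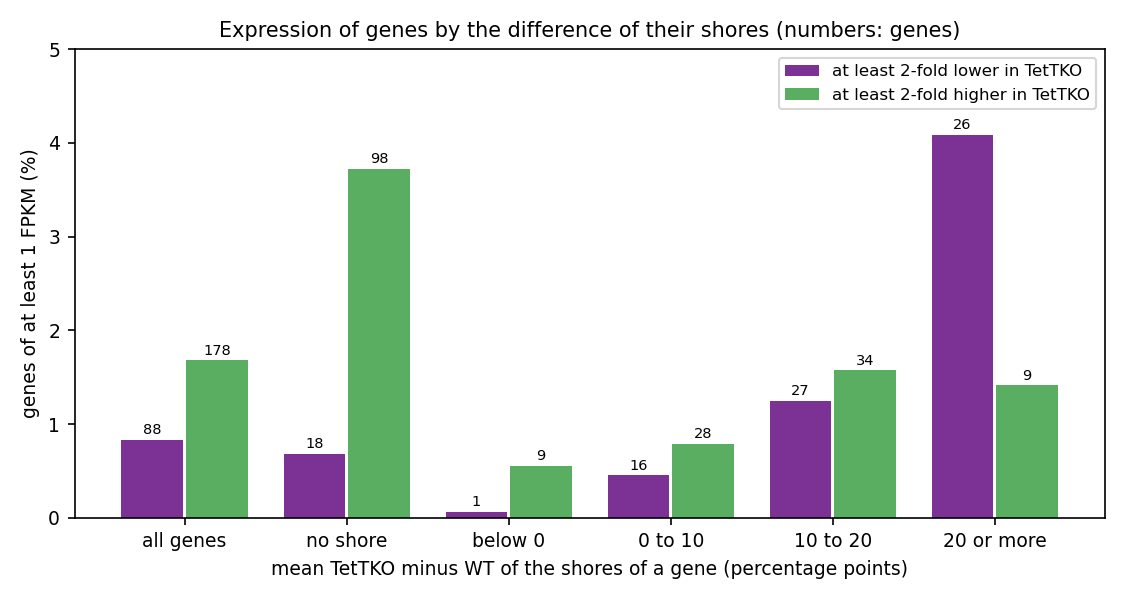
Share of genes of at least 1 FPKM (in %, with the number of genes above each bar) that were at least 2-fold lower or 2-fold higher in TetTKO than in WT, for all genes, genes with no shore, and genes by the mean difference of their shores in percentage points. The share of 2-fold lower genes is 0.831% among all genes and 4.09% where shores were at least 20 points higher.

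Of 487 genes with at least 1 shore 30 points higher in TetTKO, 344 had at least 1 FPKM, and 14 of them (4.07%) were 2-fold lower and 3 (0.872%) 2-fold higher. Of the 14, 7 were on chromosome 6. Tet1, itself mutated in the TetTKO cells, was also among the 14, with 4.36 FPKM in TetTKO and 15.1 in WT. Emp1, an epithelial membrane protein gene of chromosome 6, had 5.03 FPKM in TetTKO and 30.9 in WT. The shore that holds its start had 73.8% in TetTKO and 31.5% in WT over 11 CpGs, and its neighbour had 53.8% in TetTKO and 6.98% in WT. At this gene the unmethylated window itself was thus methylated in TetTKO. 2410004A20Rik, a synonym of Khdc3 in RefSeq and a gene of the oocyte and early embryo, had 21.6 FPKM in TetTKO and 70.5 in WT, and the shore at its start had 54.1% in TetTKO and 13.9% in WT. Its neighbour had 16.1% in TetTKO and 5.25% in WT.

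At Trh, on chromosome 6, expression was 281 FPKM in TetTKO and 839 in WT. The upstream shore had 56.5% in TetTKO and 18.6% in WT, the shore in the gene body had 45.4% in TetTKO and 10.2% in WT, and the window between them had 8.08% in TetTKO and 1.47% in WT. Both flanks were thus higher by more than 30 points, and no CpG of the printed promoter was, where the highest was 20.0% in TetTKO over 5 reads. Cd9, a tetraspanin gene of the same chromosome, had 63.4 FPKM in TetTKO and 190.5 in WT, with a shore at 44.3% in TetTKO and 13.4% in WT. Rasgrp2, a Rap1 activator gene of chromosome 19, had 7.27 FPKM in TetTKO and 21.9 in WT, with a shore at its far end of 52.1% in TetTKO and 19.7% in WT.

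The 3 genes that were 2-fold higher beside such a shore were Ifi35, Lmo4 and Itga3. Ifi35, an interferon-induced gene, had 6.07 FPKM in TetTKO and 2.13 in WT, and the shore beyond its far end had 59.4% in TetTKO and 25.03% in WT. The unmethylated neighbour of this shore had 54.9% in TetTKO and 9.67% in WT. Lmo4, a LIM domain cofactor, had 11.6 FPKM in TetTKO and 4.84 in WT, and a shore of only 8 CpGs inside it had 68.6% in TetTKO and 18.2% in WT. Itga3, an integrin subunit gene, had 12.2 FPKM in TetTKO and 5.46 in WT, and the shore upstream of its start had 54.8% in TetTKO and 19.6% in WT. The neighbours at Lmo4 and Itga3 had 4.87% and 4.09% in TetTKO and 1.55% and 2.45% in WT. A higher shore was thus met with expression in either direction. The methylated neighbour lay beside the start at Emp1, which was lower, and beyond the far end at Ifi35, which was higher.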

How the data were processed

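Bisulfite libraries were aligned to mm9 with Bismark 0.7.9, per the submitters' processing notes, and RNA libraries were processed with TopHat2 2.0.2 and Cufflinks 2.0.2. The deposited CpG files give a fraction methylated, a count of methylated reads and a count of all reads for each CpG with at least 5 reads. The deposited gene tables give FPKM, normalized by the authors, without strand. A CpG's level was 100 times methylated over all reads, and a window's level the mean over its CpGs. Strands came from the RefSeq promoter table by symbol or synonym (78.1% of 22892 gene rows). Chromosome 18 had almost none and was left out of the comparison of places. Gene starts count within 2 kb, and a shore belongs to a gene it overlaps or lies within 1 kb of. RefSeq promoters of 300 bases were placed where at least 8 listed CpGs fell only on CpGs of the sequence, at 1 position. Exon annotation of mm9 was not used here. Fold changes are log2((TetTKO + 1)/(WT + 1)) of FPKM, which understates changes of low genes.

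Named shores were the 10 largest positive and 5 largest negative differences, 1 per gene or 10 kb, with at least 15 CpGs and 100 read calls in both libraries, up to 3 members per list by the absolute difference of a shore of at least 10 CpGs, up to 6 genes in each direction of 2-fold expression beside shores 30 points higher, and every shore of the Tet and Dnmt genes and Uhrf1. The shores, gene lists and rules were chosen with earlier results of these data known. Calculations used Python 3.11.15, numpy 2.4.6, pandas 2.3.3 and scipy 1.17.1 and were checked on simulated data.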

Additional observations from a re-analysis of the deposited data

Results flagged for a closer look

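Shores of chromosome X stand outside the comparisons above, which cover the autosomes, and they too were higher in TetTKO. The same rule found 76 of them, with a mean of 36.3% in TetTKO and 30.7% in WT, a difference of 5.59 points, and 54 of the 76 were higher. With shores chosen from TetTKO, 94 were found and the difference was 5.21 points. No control library gives a level to set this against.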

How the results depend on the processing

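No paired analysis was possible because each genotype has 1 library and the results come from no test. Shores minus other windows matched on level and CpG number was -4.24 points chosen from WT and 3.30 chosen from TetTKO, so its direction turned round. No other result listed here changed sign under any alternative tried, but steps beyond the shore did. Where every shore weighs the same, the difference was negative in every step from 1400 bp outward. From 1800 to 1999 bp it was -1.17 points, against 0.741 over CpGs. The mean difference of 8.82 points was 6.09 with shores chosen from TetTKO, 7.71 chosen from the mean of both libraries, 9.44 with limits of 20 to 50%, 7.59 with neighbours under 5% and at least 20 CpGs, 8.90 with windows shifted by 500 bp, 7.21 over the 3363 shores left at a coverage of at least 10, 8.36 with odd and even CpGs, and 11.4 over 2 kb from gene ends. The step from 200 to 399 bp, 11.4 points, was 8.19 chosen from TetTKO, 10.05 from both, 8.96 at coverage 10, 11.1 with equal weights, 10.9 with pooled reads, 11.01 with odd and even CpGs, 10.2 with the step left out and 5.17 with 400 bp left out, which gave no value from 400 to 599 bp. The shift at 30%, -179 bp, was -161 chosen from TetTKO, -174 from both and -159 at coverage 10. The 718 shores at least 30 points higher were 414 with at least 10 CpGs, 64 with at least 20, 224 chosen from TetTKO, 84 at coverage 10 and 1673 after centring on the median of all windows (-5.79), and the 2 lower ones were 0, 0, 42, 1 and 0. Shores of 5 to 9, 10 to 19 and 20 or more CpGs had 8.09, 9.38 and 8.59 points, 3.25, 6.97 and 7.95 chosen from TetTKO, and 7.37, 8.42 and 8.39 with odd and even CpGs. Upstream shores (6.67) had 4.53 chosen from TetTKO and 6.32 within 1 kb of a start, and downstream ones (8.05) 6.36 and 7.32. The 14 genes 2-fold lower were 25 with a pseudocount of 0.1, 6 with 5, 7 without chromosome 6 and 5 with shores chosen from TetTKO, and the 3 higher ones were 10 and 0 with these pseudocounts. The cause of these changes was not tested. The choices of 400 bp, of distance from gene ends, of matching and of expression with shores from TetTKO, and of leaving out chromosome 18 were made after seeing the data. Depth limits single shores, at a median of 130 read calls in TetTKO and 115 in WT.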
